A study of Homo sapiens and Mus musculus with 55 samples.

Results

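The experiment described here is the doxycycline-induced silencing of Sting1 in Py230 cells, a mouse mammary tumour line derived from a mouse carrying the MMTV-PyMT transgene. It comprises 6 RNA-seq libraries of the 55 in the series: 3 from cells given vehicle and 3 from cells given doxycycline. All 6 libraries carry the Sting1 shRNA, so the groups share the cell line and the hairpin construct and differ, by their labels, only in the treatment. The series concerns the repression of STING by MYC and its bearing on immune evasion in triple-negative breast cancer. The dose and duration of doxycycline, the nature of the vehicle, the hairpin sequence and the number of clones are not given in the sources used here. No group analysed here received doxycycline without the shRNA, so the effect of the hairpin and the effect of the drug cannot be told apart anywhere below. Nothing in the labels says that the 3 libraries of a group came from separate cultures, so p-values measure the spread between these libraries, which may be technical.

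Sting1, listed here under its older symbol Tmem173, encodes the endoplasmic reticulum adaptor STING. The enzyme cGAS detects DNA in the cytosol and makes the cyclic dinucleotide cGAMP, which binds STING and sends it to the Golgi. There STING recruits the kinase TBK1, which phosphorylates the transcription factor IRF3 and switches on interferon beta, while a parallel arm engages NF-kB. Secreted interferon then signals through its receptor, the JAK kinases and STAT transcription factors to induce the interferon-stimulated genes in the same and neighbouring cells. In tumour cells the pathway is known for inducing CCL5 and CXCL10, which draw in T cells, and for raising class I antigen presentation.

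The table held normalized read counts for 24465 genes, of which 14461 had a mean of at least 10 over the 6 libraries and were tested. The libraries held 7246522 to 9136783 reads on genes, and the vehicle and doxycycline groups overlapped in depth. A gene was called higher or lower with doxycycline where limma gave an adjusted p below 0.05. By that rule 4736 genes were higher, which is 32.8% of those tested, and 5075 were lower, which is 35.1%. With so many genes called, the size of a change says more than the call, and 937 genes (6.48%) were higher and 1134 (7.84%) were lower by at least 2-fold. Changes are given as the difference in log2(normalized count + 1), doxycycline minus vehicle, ± its standard error with 3 libraries per group, and the median over all genes tested was -0.01. The first principal component separated the groups and held 88.4% of the variance. In vehicle library 2, 7 genes had at least 10 reads while the other vehicle libraries had at most 1, among them Ifitm1, Krt6a and Krt6b, this check having been added after the data were seen. They held 126 reads in all, and vehicle libraries 1 and 3 had 0 such genes. Without vehicle library 2 the counts were 4517 higher and 4844 lower. Doxycycline libraries 1 and 2 had 2 such genes and 1 such gene, Krt13 and Krt4 in the former and Gpx5 in the latter.

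The target of the hairpin fell. Tmem173 stood at 841, 768 and 886 normalized counts in the vehicle libraries and at 48.3, 47.5 and 42.9 in the doxycycline libraries, a change of -4.14 ± 0.09 (limma adjusted p = 4.00e-22). The mean fell by 94.4%, all 3 doxycycline libraries lay far below all 3 vehicle libraries, and the spread within each group was small. Among the 14461 genes tested, Tmem173 ranked 58 from the lowest change. In bulk RNA, here and below, fewer cells expressing a gene and less of its RNA per cell cannot be told apart.

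**Figure D1:**
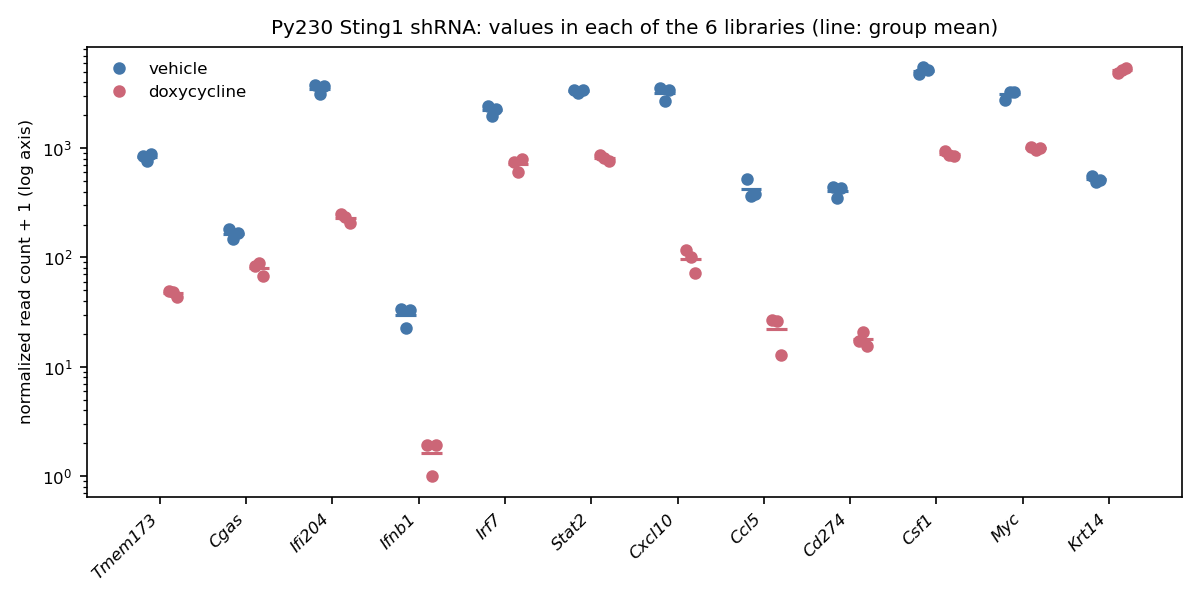
Normalized read count + 1 (log axis) of 12 genes in each of the 3 vehicle and 3 doxycycline libraries, with the group mean as a line. The groups stand apart for all 12 genes, of which 11 are lower with doxycycline and Krt14 is higher. The 12 genes were picked from the named genes, and the groups did not overlap for 70.8% of all genes tested. Irf3 and Ikbke, whose groups overlapped, are not shown.

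The cGAS-STING pathway list held 29 genes in the table, of which 27 were tested. Of these, 9 were higher (33.3%), 12 were lower (44.4%) and 6 did not pass, with a median change of 0.09. Over all genes tested, 32.8% were higher, 35.1% were lower and 67.8% passed in either direction. Upstream of STING, the DNA sensor Cgas stood at 179, 146 and 165 with vehicle and 82.4, 87.3 and 66.7 with doxycycline (-1.05 ± 0.13, limma adjusted p = 6.63e-08). Its highest doxycycline library was well under its lowest vehicle library. Ifi204, a DNA-binding member of the HIN-200 family linked to STING signalling, stood at 3736, 3106 and 3658 and then 246, 234 and 205 (-3.93 ± 0.07), the largest fall in the list after Tmem173 itself. Ifi204 belongs to a cluster of near-identical genes, so its reads may be shared with its relatives and its level is uncertain.

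The kinase and the transcription factor that act directly below STING moved little. Tbk1 fell by a small amount, from 529, 495 and 549.9 to 421, 394 and 435 (-0.33 ± 0.06). Irf3 was 337, 338 and 349.6 with vehicle and 387, 334 and 369.8 with doxycycline, and its change of 0.09 ± 0.07 did not pass (limma adjusted p = 0.288). Ikbke, which encodes the TBK1-related kinase IKK epsilon, also did not pass at -0.14 ± 0.08. The groups overlapped for both Irf3 and Ikbke.

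Some members of the list handle DNA, nucleotides or cGAMP. Samhd1, a dNTP hydrolase that is itself interferon-inducible, fell from 2869, 2538 and 2903 to 1029, 1020.3 and 1009.8 (-1.44 ± 0.05). Enpp1, which hydrolyses cGAMP outside the cell, changed by -1.05 ± 0.12, Banf1, a chromatin protein that competes with cGAS for DNA, by -0.89 ± 0.07, and Slc19a1, a cyclic dinucleotide importer, by -0.84 ± 0.10. The RNase H2 subunit genes Rnaseh2a and Rnaseh2b changed by -0.25 and -0.32, the latter with an adjusted p of 0.0514 in DESeq2 and of 0.0609 in limma without vehicle library 3, and Rnaseh2c did not pass at 0.18. Dnase2a, a lysosomal DNase, rose by 0.49 ± 0.08. Lrrc8a, a subunit of the channel that passes cGAMP, was at 0.14 ± 0.15 and did not pass, and Slc46a2 and Ripk3 were too low to test.

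Other genes of the list encode proteins that act on STING itself. Nlrx1, a mitochondrial NLR protein that restrains STING, rose from 69.3, 80.6 and 65 to 129, 137 and 114 (0.82 ± 0.13). Surf4, which returns STING from the Golgi, rose from 689, 678 and 718 to 1148, 1163 and 1153 (0.73 ± 0.05), with every doxycycline library above every vehicle library. Npc1 (0.65), which directs STING to lysosomes, Stim1 (0.54), which holds it in the endoplasmic reticulum, the deubiquitinase gene Usp20 (0.73) and the ubiquitin ligase genes Rnf5 (0.34) and Trim32 (0.39) also rose, as did the palmitoyltransferase gene Zdhhc7 (0.48). Zdhhc3 (0.10) and Tollip (0.11) did not pass in limma, although these 2 genes and Rnaseh2c passed in edgeR and under quantile normalization with the same direction. In the other direction, Nlrc3, another restraining NLR protein, changed by -1.05 ± 0.26 and the ubiquitin ligase gene Trim56 by -0.56 ± 0.04.

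Interferon beta was read in the vehicle libraries and almost absent with doxycycline. Ifnb1 stood at 33.1, 21.5 and 32 normalized counts in the vehicle libraries, from 85 reads in all, and at 0.947, 0 and 0.913 in the doxycycline libraries, from 2 reads. The ratio of the means was 46.5-fold lower, with a 95% counting interval of 11.6 to 364 that covers counting error only. No doxycycline library held more than 1 Ifnb1 read, and every vehicle library held at least 24. Of the 24 genes tested among interferons, their receptors, JAKs, STATs and IRFs, 13 were lower (54.2%, against 35.1% of all genes tested). Another 5 were higher (20.8%, against 32.8%) and 6 did not pass, and the list median was -0.32. The count of higher members became 8 under quantile normalization.

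Several members of that list that fell are known to be induced by interferon themselves. Irf1 fell from 1028, 853 and 982 to 219.8, 192 and 172 (-2.29 ± 0.08) and Stat2, the interferon receptor's own signal transducer, from 3401, 3153 and 3359 to 866, 814 and 759.7 (-2.02 ± 0.05). Irf7, which amplifies interferon production, fell from 2403, 1968 and 2295 to 750.2, 608 and 791 (-1.64 ± 0.07, limma adjusted p = 8.38e-16). For all 3 genes the lowest vehicle library was more than double the highest doxycycline library. The feedback inhibitor genes Socs1 and Ptpn2 changed by -1.81 ± 0.16 and -1.64 ± 0.07, respectively. Chosen after their values were seen, Irf9 changed by -0.36 and Ifnar1, a chain of the type I interferon receptor, by 0.86. Jak1, the list's most abundant member, was at 2849, 2668 and 2758 and 2694, 3046 and 2869.7, and its change of 0.06 ± 0.05 did not pass, although it passed under quantile normalization (0.12).

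Of 13 genes tested for sensing double-stranded RNA, 10 were lower (76.9%, against 35.1% of all genes tested), 2 were higher and 1 did not pass. Their median was -1.34. Dhx58, which encodes the sensor LGP2, fell from 1315, 1171 and 1343 to 165, 155 and 139 (-3.06 ± 0.07), and Zbp1, a Z-nucleic acid sensor that triggers necroptosis, fell from 4054, 3609 and 4102 to 561, 448 and 488 (-2.98 ± 0.06). Ifih1, encoding MDA5, fell from 2935, 2826 and 2939 to 613, 619 and 605 (-2.24 ± 0.05). Within each group these 3 genes varied far less than they differed between the groups. Ddx58, encoding RIG-I, changed by -1.34 ± 0.04, the kinase gene Eif2ak2 (PKR) by -1.98 ± 0.04, Tlr3 by -1.43 ± 0.05 and Rnf135, a RIG-I cofactor gene, by -1.60 ± 0.11. The adaptor genes of the same pathways, chosen after their values were seen, did not fall: Mavs did not pass (0.10), and Ticam1, the TLR3 adaptor gene, was higher (1.08).

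The interferon-stimulated genes fell almost without exception. The 3 lists of IFIT, OAS and MX genes, GBP and IRG GTPases and other interferon-stimulated genes held 95 different genes in the table, of which 90 were tested. Of these 90, 87 were lower, against 35.1% of all genes tested, 2 were higher and 1 did not pass. By size, 83 were lower by at least 2-fold, 65 by at least 4-fold and 21 by at least 16-fold, and their median change was -2.69 (quartiles -3.87 and -1.82). In all 87 the groups did not overlap, as was true in either direction for 70.8% of the genes tested. Their reads summed to 2.83%, 2.41% and 2.72% of the vehicle libraries and to 0.544%, 0.491% and 0.509% of the doxycycline libraries. Of the 64 genes that fell by at least 16-fold in the whole table, 21 were in these lists. The lists were assembled as known interferon targets with earlier results of these libraries known, so the count is a description.

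Each of the 17 tested IFIT, OAS and MX genes was lower, with a median of -3.21. Mx1, a dynamin-like GTPase that blocks viral replication, stood at 2649, 1992 and 2549 with vehicle and 33.2, 28.7 and 31 with doxycycline (-6.22 ± 0.09, limma adjusted p = 1.45e-24). Oas2, an RNA-activated 2'-5' oligoadenylate synthetase, stood at 1993, 1579.7 and 1839.5 and 35, 28.7 and 32 (-5.77 ± 0.09), and Oas3 at 284, 160.3 and 193 and 1.89, 2.21 and 0.913 (-6.31 ± 0.26). Vehicle library 2 was the lowest of its group for these 3 genes and for many others of the lists, yet lay many fold above every doxycycline library. The most abundant of the family, Ifit2, which binds viral RNA, fell from 14066, 10087 and 13235 to 493, 419 and 443 (-4.77 ± 0.08). Ifit3 fell by a like amount (-4.75 ± 0.09) as did Ifit3b (-4.60 ± 0.08), but these neighbours are near-identical and their reads may be shared. Oasl1, which restrains Irf7 translation, changed by -4.61 ± 0.11.

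**Figure D2:**
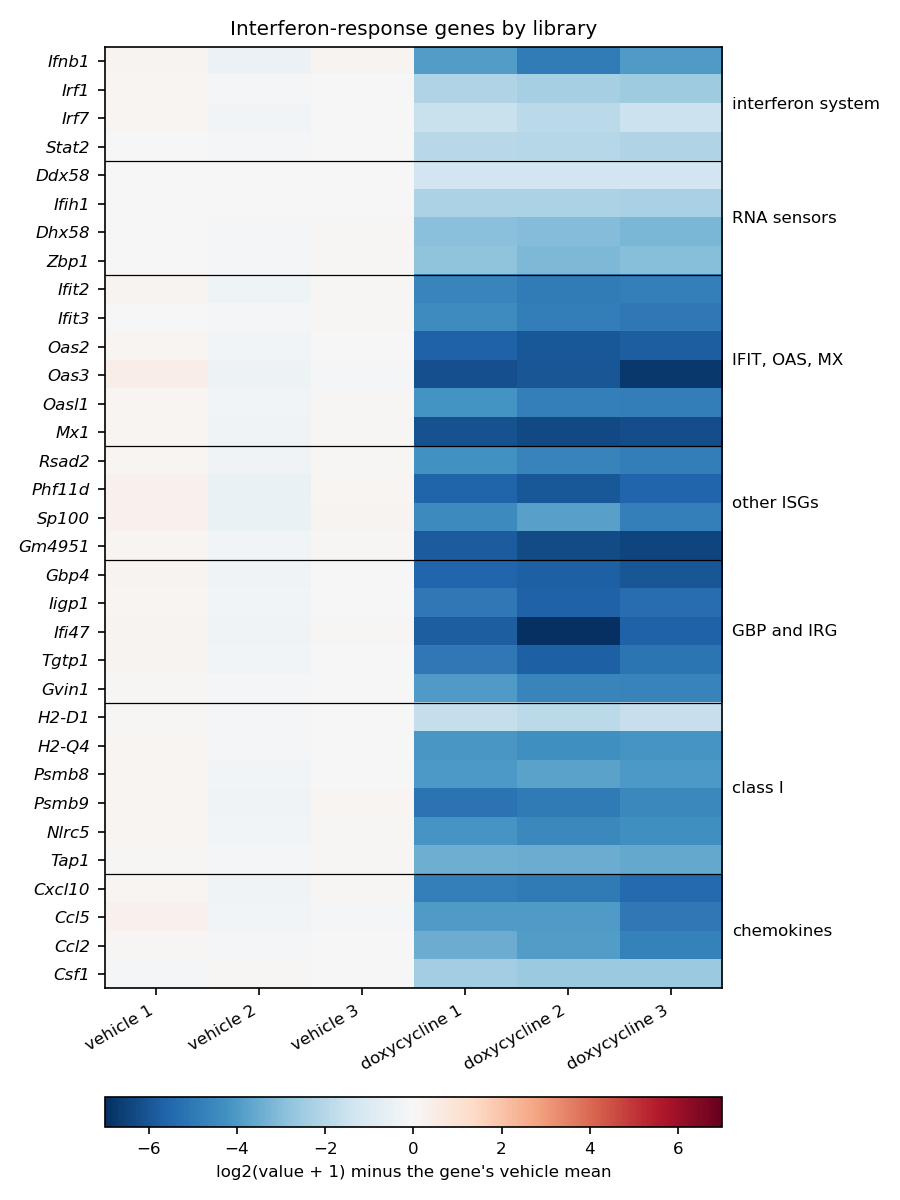
Each cell is log2(normalized count + 1) of a gene in 1 library minus the mean of that gene over the 3 vehicle libraries (columns: 3 vehicle and 3 doxycycline libraries; rows: 33 named genes in 7 groups). All 33 genes shown are lower in every doxycycline library, with mean changes from -1.34 for Ddx58 to -6.501 for Ifi47. They were picked from the named genes, most of them named for large called changes, so their common direction follows from the choice. Members of the same lists that rose or did not pass, such as Ifi27 and Jak1, are not shown.

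Each of the 19 tested GBP and IRG GTPases, which attack the vacuoles of intracellular pathogens, was lower, with a median of -3.42. Iigp1 was the most abundant and fell from 7830.0, 6315 and 7399 to 221, 139 and 179.9 (-5.33 ± 0.10). Gbp4 fell from 674, 482 and 602 to 11.4, 9.95 and 8.22 (-5.75 ± 0.15), and Ifi47 from 635, 476 and 595 to 9.47, 1.11 and 10.04 (-6.501 ± 0.36). The doxycycline libraries were low for all 3 genes, and doxycycline library 2, with 1 read of Ifi47, sets part of that gene's fold: without it the change was -5.72. Gvin1 changed by -4.43 ± 0.11, Tgtp1 by -5.29 ± 0.14 and its near-identical neighbour Tgtp2 by -5.27 ± 0.25, and sharing of reads among such GTPase copies leaves the single-gene levels uncertain.

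Among 54 other interferon-stimulated genes tested, 51 were lower, 2 were higher and 1 did not pass, with a median of -2.25. Rsad2, encoding the antiviral enzyme viperin, fell from 15333, 11970.2 and 14982 to 733, 538 and 493 (-4.59 ± 0.09). Parp14, an ADP-ribosyltransferase, fell from 5807, 4958 and 5740.3 to 394, 339 and 336 (-3.94 ± 0.06, limma adjusted p = 1.45e-24). Gm4951, an IRG-like GTPase gene, fell from 1367, 1091 and 1296 to 20.8, 15.5 and 13.7 (-6.16 ± 0.13). In each case the 3 doxycycline libraries lay together and more than 10-fold under the lowest vehicle library. Phf11d changed by -5.70 ± 0.18, Phf11b by -4.44 ± 0.33, Sp100, a nuclear body gene, by -4.35 ± 0.22, and Lgals9, encoding galectin-9, by -4.02 ± 0.08. Outside the lists, Rnf213, a very large ubiquitin ligase gene that is interferon-inducible, fell from 54880.4, 50342 and 53255 to 9986, 9211 and 8895 (-2.50 ± 0.04).

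The fall was not uniform across the interferon-stimulated genes. Chosen after their values were seen, Isg15, encoding the ubiquitin-like modifier, changed by only -0.998 ± 0.05 and Ly6e by -0.96 ± 0.05. Ifi27 was higher, from 310.3, 406 and 317 with vehicle to 906, 926 and 967 with doxycycline (1.45 ± 0.08). Shisa5 was higher by a small amount (0.32 ± 0.05), and Ifitm2 did not pass (0.16 ± 0.09). The members of the lists thus ranged from a rise of 1.45 in Ifi27 to -6.501 in Ifi47.

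Most class I antigen presentation genes fell as well. Of 24 tested, 22 were lower, against 35.1% of all genes tested, 1 was higher and 1 did not pass, with a median of -2.0. H2-Q4, a non-classical class I heavy chain gene, fell from 3156, 2605 and 2840.3 to 171, 145 and 162 (-4.16 ± 0.07), and the classical gene H2-D1 from 8012, 6973 and 7403 to 2311, 2033 and 2458 (-1.72 ± 0.06). Nlrc5, the transactivator of class I genes, fell from 2611, 2058 and 2509 to 136, 104 and 121 (-4.30 ± 0.09, limma adjusted p = 6.05e-23). All 3 genes were lower in every doxycycline library, H2-D1 by far less than the other two. The peptide transporter gene Tap1 fell from 3798, 3284 and 3775 to 332, 324 and 298 (-3.50 ± 0.06). The immunoproteasome subunit gene Psmb8 fell from 1340.2, 1074 and 1227 to 74.8, 89.5 and 74.9 (-3.91 ± 0.09) and Psmb9 from 583, 458 and 587 to 14.2, 16.6 and 22.8 (-4.86 ± 0.15). H2-Q6 and H2-Q7 had 1 and 2 reads in the doxycycline libraries and were 83.6-fold (95% counting interval 16.4 to 3749) and 98.9-fold (24.8 to 756) lower, with levels that are uncertain because class I genes share sequence. Chosen after their values were seen, H2-K1 changed by -2.65 and B2m, the class I light chain gene, by -1.32, while the general chaperone gene Calr was higher (0.36) and Pdia3 did not pass (-0.02).

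The class II chain genes were under the filter. Of 5 class II presentation genes tested, 2 were lower, against 35.1% of all genes tested, 1 was higher and 2 did not pass. Their median was -0.11. Cd74, the invariant chain gene, was 18.1, 28.7 and 19.2 and then 7.58, 5.53 and 5.48 (-1.66 ± 0.31), and Rfx5, a regulator of both classes, changed by -1.47 ± 0.08 while its partner Rfxap rose by 0.38 ± 0.12.

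Among T cell-attracting chemokines, 5 genes were tested, of which 3 were lower, against 35.1% of all genes tested. Another 1 was higher and 1 did not pass. Cxcl10, a CXCR3 ligand, stood at 3526, 2668 and 3364 normalized counts with vehicle and 116, 100.6 and 71.2 with doxycycline (-5.06 ± 0.11, limma adjusted p = 5.53e-22). Ccl5, a chemokine that draws in effector T cells, stood at 522, 362 and 383 and 25.6, 25.4 and 11.9 (-4.33 ± 0.20, limma adjusted p = 1.00e-15). Both were high in every vehicle library and low in every doxycycline library, with doxycycline library 3 the lowest for each. Cxcl11, another CXCR3 ligand, was under the filter at 8.53, 7.16 and 6.39 with vehicle, from 22 reads, and had 0 reads with doxycycline, so that it was at least 7.45-fold lower (3 reads taken as the limit of the whole group). Cx3cl1 was lower by a small amount (-0.41 ± 0.08), and the epithelial chemokine Ccl27a was higher (0.75 ± 0.14).

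Of 9 neutrophil and monocyte chemokines and growth factors tested, 7 were lower (77.8%, against 35.1% of all genes tested). The others were 1 higher and 1 that did not pass, and the list median was -1.10. Ccl2, the main monocyte attractant, fell from 152, 134 and 148 to 12.3, 8.84 and 4.57 (-4.02 ± 0.24). Csf1, the macrophage growth factor and the list's most abundant member, fell from 4704, 5457 and 5176 to 936, 858 and 849 (-2.53 ± 0.05, limma adjusted p = 9.05e-23), and Csf3, its neutrophil counterpart, from 216, 267 and 221 to 91.9, 97.3 and 80.3 (-1.37 ± 0.11). No library of either group crossed into the other for these 3 genes. The lower-level chemokine genes Ccl7 and Ccl20 changed by -1.21 ± 0.33 and -1.10 ± 0.32, and Cxcl14 rose from 6.40, 9.85 and 9.59 to 23.7, 25.4 and 34.7 (1.59 ± 0.28).

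Of 21 NF-kB targets and subunits tested, 13 were lower, against 35.1% of all genes tested, 6 were higher and 2 did not pass, with a median of -0.60. The inhibitor gene Nfkbie fell from 244, 244 and 225 to 64.4, 65.2 and 60.3 (-1.89 ± 0.11), and the non-canonical subunit genes Relb and Nfkb2 changed by -1.47 ± 0.07 and -1.16 ± 0.06. Lif, a cytokine of the IL-6 family, fell from 3592, 4116 and 4104 to 1606, 1463 and 1521 (-1.36 ± 0.05), and Il1rn, encoding the IL-1 receptor antagonist, changed by -1.72 ± 0.25. In the other direction, Map3k8, a kinase gene upstream of ERK, rose from 75.7, 61.8 and 58.6 to 172, 155 and 168 (1.33 ± 0.12). Ptgs2, encoding cyclooxygenase-2, rose from 2463, 3149 and 3285 to 4355, 4153 and 4426 (0.55 ± 0.07), with the groups apart for both genes.

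Among 13 tested immune checkpoint and natural killer cell ligands, 7 were lower (53.8%), 4 were higher (30.8%) and 2 did not pass. The shares over all genes tested were 35.1% and 32.8%, and the list median was -0.30. Cd274, encoding PD-L1 and also counted above among interferon-stimulated genes, fell from 436, 347 and 434 to 16.1, 19.9 and 14.6 (-4.51 ± 0.14, limma adjusted p = 5.85e-19). Every doxycycline library was more than 10-fold below every vehicle library. Lgals3, encoding galectin-3, moved the other way, from 738, 677 and 708 to 3230.0, 3237 and 3489 (2.23 ± 0.05), as did Vtcn1, encoding B7-H4, by 0.94 ± 0.14 and Cd200, a myeloid-inhibiting ligand gene, by 0.48 ± 0.04. Nectin2, a ligand gene for TIGIT and DNAM-1, changed by -1.13 ± 0.08 and Vsir, encoding VISTA, by -0.87 ± 0.15.

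Counting called genes whose mean reached 50 and whose groups were apart, the 10 lowest changes were Ifi206, Ifi213, Ifi47, Oas3, Mx1, Gm4951, Gm4841, Gm12250, Ifi208 and Oas2. Ifi206 stood at 418, 274 and 394 with vehicle and had 0 reads in the 3 doxycycline libraries, so that it was at least 366-fold lower by the same limit. Its relatives Ifi213 and Ifi208, with 3 and 2 doxycycline reads, were 214-fold (95% counting interval 72.7 to 1037) and 145-fold (41.2 to 1245) lower. These HIN-200 genes lie close in sequence to Ifi204 and their reads may be shared. Gm4841 and Gm12250, GTPase-like genes in no list, changed by -6.00 ± 0.23 and -5.96 ± 0.23. Of the 100 called genes of that level with the lowest changes, 41 belonged to the 3 interferon-stimulated lists. Those lists held 90 of the 14461 genes tested. They were assembled with earlier results of these libraries known, so this count too is a description.

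**Figure D3:**
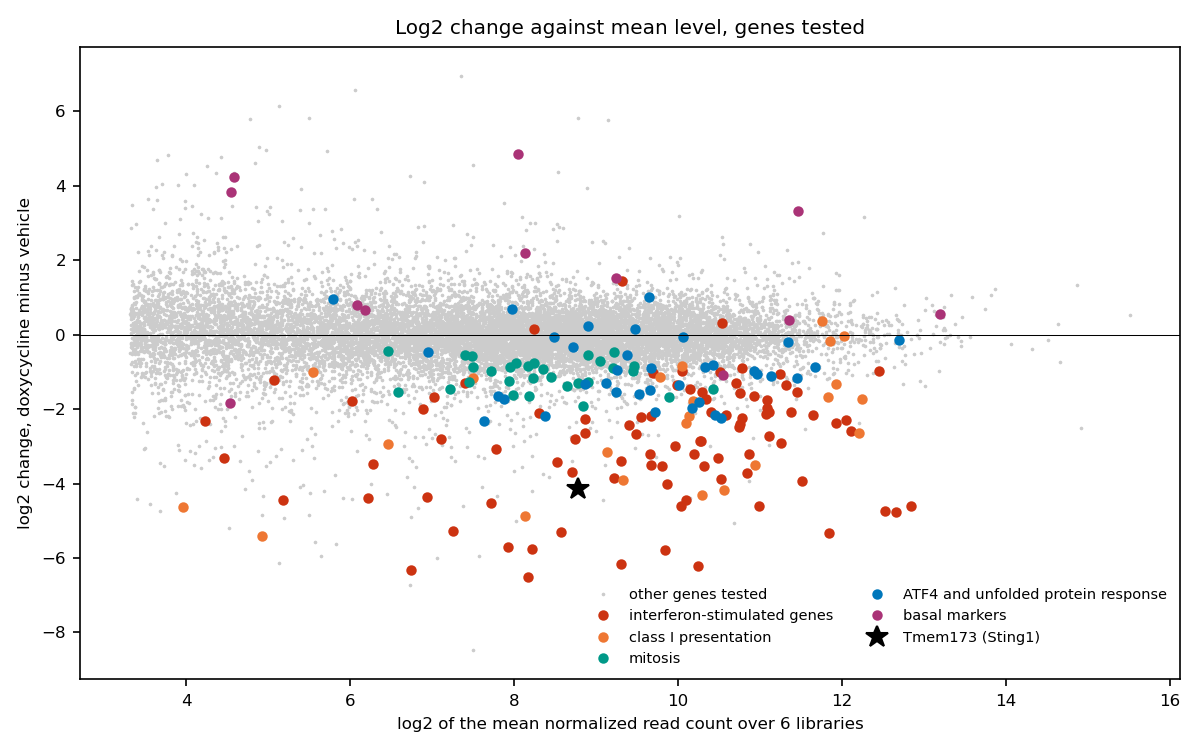
Log2 change (doxycycline minus vehicle) against the log2 mean normalized count over the 6 libraries, for the 14461 genes tested, each point 1 gene. The 90 interferon-stimulated genes (red) and class I genes (orange) lie mostly below 0 among many other genes, Tmem173 (star) lies at -4.14, and the mitosis genes (green) are all below 0.

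Myc was lower with doxycycline. It stood at 2769.9, 3281 and 3274 normalized counts with vehicle and 1020.1, 964 and 998 with doxycycline (-1.64 ± 0.05, limma adjusted p = 1.41e-18), and the lowest vehicle library was well over double the highest doxycycline library. MYC drives growth as a transcription factor dimerized with MAX, and the MXD proteins compete for MAX. Of 11 tested genes of this network, 6 were lower (54.5%), 4 were higher (36.4%) and 1 did not pass, with a median of -0.23. The shares over all genes tested were 35.1% and 32.8%. Mycn changed by -1.13 ± 0.19, Max by -0.46 ± 0.06 and Mga, a MAX partner that represses, by -0.55 ± 0.05. Among the competing partners, Mxi1 rose from 165, 133 and 118 to 226, 223 and 228 (0.71 ± 0.11) whereas Mxd1 changed by -0.50 ± 0.12.

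Of 35 ribosome biogenesis and growth genes known as MYC targets, 32 were lower, against 35.1% of all genes tested, 1 was higher and 2 did not pass, with a median of -0.72. Ncl, encoding the nucleolar protein nucleolin, fell from 10818, 10849.9 and 11629 to 4719, 4846 and 4589.9 (-1.23 ± 0.04). Cad, the first enzyme of pyrimidine synthesis, fell from 1109, 1181 and 1129 to 431, 411 and 429 (-1.42 ± 0.05), and Odc1, the rate-limiting enzyme of polyamine synthesis, from 1180.3, 1096 and 1109 to 488, 439 and 528 (-1.22 ± 0.06). The groups were well apart for these 3 genes, each about 2-fold lower or more. Rrp12 (-1.29 ± 0.07), Gnl3 (-1.20 ± 0.05) and Wdr43 (-1.20 ± 0.05), all nucleolar, were also among the larger falls. The range was narrow beside that of the interferon-stimulated genes: no member fell by more than 1.42 on the log2 scale. The 1 higher member, Tfrc, the transferrin receptor gene, named after its values were seen (0.14), lost its call without vehicle library 1 and without doxycycline library 1 or 3.

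Nucleotide synthesis and one-carbon genes were lower in 19 of 27 (70.4%, against 35.1% of all genes tested), higher in 4 and not past the test in 4. Their median was -0.38. The larger falls were in mitochondrial one-carbon enzymes. Mthfd2 fell from 2016, 2469.8 and 2384 to 537, 447 and 541 (-2.17 ± 0.07) and Shmt2 from 1629, 1951 and 1952 to 552, 497 and 539 (-1.79 ± 0.06), and Aldh1l2 from 262, 485 and 403 to 66.3, 67.4 and 74 (-2.41 ± 0.14). All vehicle libraries exceeded all doxycycline libraries for each, with vehicle library 1 the lowest vehicle library. Mthfd1l changed by -1.48 ± 0.07 and the cytosolic Shmt1 by -1.34 ± 0.08, whereas Atic, a purine synthesis enzyme gene and the most abundant member, changed by -0.37 ± 0.05.

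All 30 mitosis genes tested were lower, against 35.1% of all genes tested, with a median of -0.98. Cenpe, a kinetochore motor gene, fell from 783, 677 and 718 to 199.9, 212 and 162 (-1.93 ± 0.08), and Mki67, the proliferation marker Ki-67, from 1431, 1449 and 1448 to 454, 512 and 397 (-1.67 ± 0.07). Top2a, a DNA topoisomerase gene that peaks in G2 and mitosis, fell from 2043, 1975 and 2035 to 745, 778 and 678 (-1.46 ± 0.05). Each fell by more than 2-fold, with no overlap of the groups. Ccnb1 (-1.63), Kif23 (-1.64) and Cdc25c (-1.53) followed. Replication and E2F genes were mixed: of 35 tested, 21 were lower, 6 were higher and 8 did not pass, with a median of -0.32. Ccne1, the S-phase entry cyclin, fell from 176, 142 and 169 to 33.2, 49.7 and 31 (-2.09 ± 0.16), and Gins1 (-1.71 ± 0.22), Pola1 (-1.18 ± 0.09), Mcm10 (-1.12 ± 0.10), Mcm7 (-1.10 ± 0.05) and Cdc45 (-1.05 ± 0.11), all parts of the replication machinery, were lower. Dnmt1, the most abundant, changed by -0.18 ± 0.05. Chosen after their values were seen, Mcm4 (0.62), E2f2 (0.50) and Fen1 (0.49) were higher.

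ATF4 is the transcription factor of the integrated stress response and drives amino acid synthesis and transport. Of 36 ATF4 and unfolded protein response genes tested, 29 were lower, against 35.1% of all genes tested, 5 were higher and 2 did not pass, with a median of -1.02. Psat1, of serine synthesis, fell from 2248, 2489 and 2579 to 515, 473 and 569.7 (-2.23 ± 0.06, limma adjusted p = 2.88e-20), and Pycr1, of proline synthesis, from 269, 365 and 362 to 56.8, 76.3 and 63 (-2.32 ± 0.12). Chac1, a glutathione-degrading enzyme and ATF4 target, fell from 451, 614 and 571 to 97.6, 125 and 132 (-2.20 ± 0.11). Vehicle library 1 was the lowest of its group for these 3 genes and still stood at several times every doxycycline library. Trib3 (-1.97 ± 0.09), Vldlr (-2.09 ± 0.07), Sesn2 (-1.59 ± 0.06) and the cystine importer gene Slc7a11 (-1.73 ± 0.10) were lower too. The endoplasmic reticulum chaperone gene Hspa5, the most abundant, moved from 7071, 6676 and 7183 to 6318, 6496 and 6179 (-0.14 ± 0.04), a call lost under quantile normalization (-0.03, adjusted p = 0.497). Chosen after their values were seen, Atf4 itself changed by -1.16, Ddit3 by -1.64 and Asns by -1.06, while the stress kinase gene Eif2ak3 was higher (1.02).

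**Figure D4:**
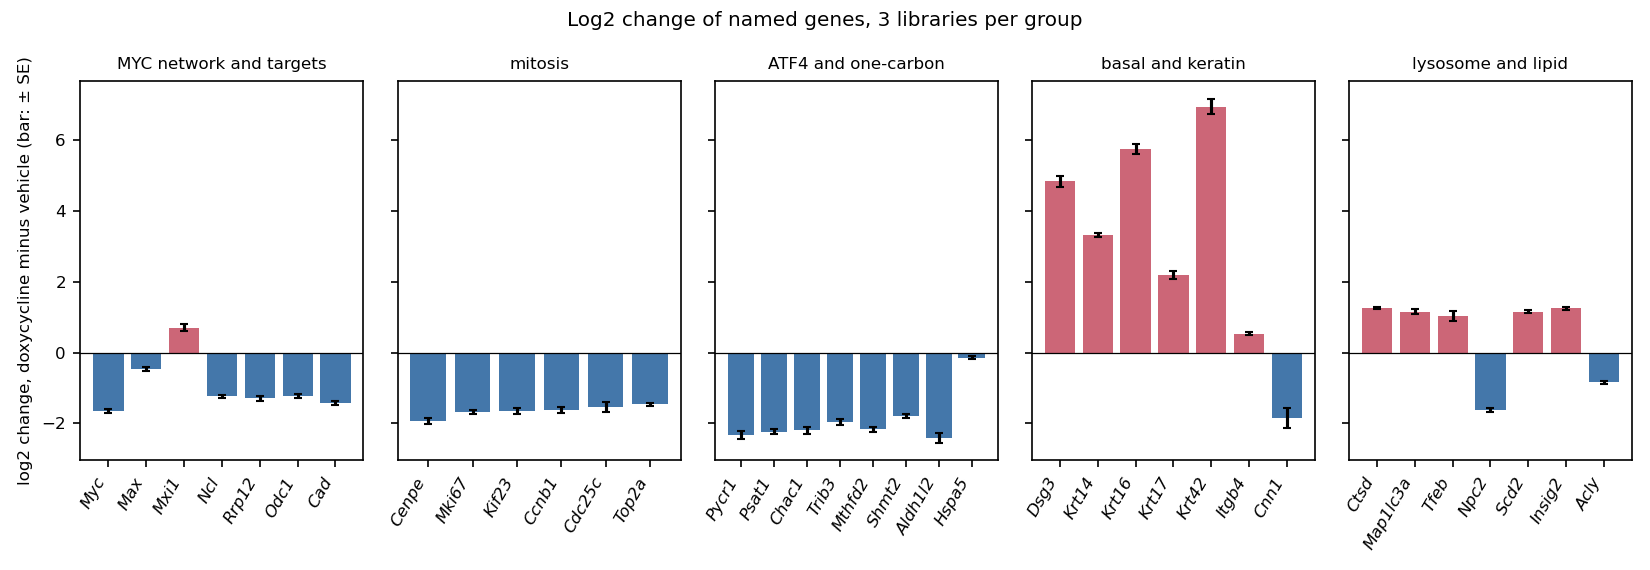
Log2 change (doxycycline minus vehicle, y axis) with its standard error for 35 named genes in 5 panels, from 3 libraries per group. The genes were picked from the named genes, most of them named for large changes. Those plotted for mitosis, ATF4 and one-carbon metabolism are all below 0. In the full lists, 5 of 36 ATF4 and unfolded protein response genes were higher. The same was true of 4 of 27 nucleotide synthesis and one-carbon genes. The plotted keratins and Dsg3 are above 0, up to 6.96 for Krt42. Cnn1, in the same panel as the keratins, is at -1.83.

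Doxycycline is a tetracycline antibiotic, a class known to act on the mitochondrial ribosome. Of 15 listed transcripts encoded in the mitochondrial genome, 0 were found in the table, so they were not analysed. Of 36 nuclear-encoded respiratory chain subunits tested, 20 were higher (55.6%), 7 were lower (19.4%) and 9 did not pass, with a median of 0.17. Over all genes tested, 32.8% were higher and 35.1% were lower. Cox7a2 rose by 0.64 ± 0.08, Ndufb10 by 0.56 ± 0.08, Sdhc by 0.55 ± 0.06, Uqcrb by 0.50 ± 0.08 and Ndufb8 by 0.46 ± 0.08, whereas Cox6c changed by -0.77 ± 0.06. The lower count was 2 under quantile normalization and under DESeq2, 3 without vehicle library 2 or 3 and 2 without doxycycline library 2. Atp5a1, the most abundant, was at -0.09 and turned to 0.0300 under quantile normalization. Of 40 mitochondrial ribosome proteins, 20 were lower, 2 were higher and 18 did not pass, with a median of -0.15. Mrps2 (-0.94), Mrpl17 (-0.77), Mrpl13 (-0.69), Mrps35 (-0.69), Mrpl1 (-0.68) and Mrps30 (-0.64) were the largest falls, none reaching 2-fold, and the most abundant member, Mrpl37, was at 0.09 and did not pass, although it did without vehicle library 1 (0.11) and under quantile normalization (0.14). The higher count of the list was 4 under the same alternatives.

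Of 18 mitochondrial stress and chaperone genes, 11 were lower (61.1%, against 35.1% of all genes tested), 4 were higher and 3 did not pass. Their median was -0.20. Trap1, a mitochondrial HSP90, fell from 1443, 1369 and 1433 to 438, 449.9 and 445 (-1.67 ± 0.05), and Hspa9, encoding mortalin, from 11730.1, 12675 and 12826 to 6147, 6257 and 6348 (-0.99 ± 0.04). The mitochondrial DNA helicase gene Twnk changed by -0.90 ± 0.08, the stress factor gene Atf5 by -0.85 ± 0.06 and the biogenesis coactivator gene Ppargc1a by -0.77 ± 0.15. Oma1, a stress-activated protease of the inner membrane, rose by 0.87 ± 0.08.

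Central metabolism genes moved in both directions, as did the genes tested as a whole, of which 32.8% were higher and 35.1% were lower. Of 30 glycolysis and hypoxia genes, 13 were higher, 12 were lower and 5 did not pass, with a median of 0.06. Hk2, encoding the inducible hexokinase, fell from 550.1, 760.3 and 697 to 189, 182 and 206 (-1.78 ± 0.09). Pkm, encoding pyruvate kinase, rose from 6474, 6224 and 6373 to 9914, 10168 and 10376 (0.68 ± 0.04), as did the phosphofructokinase gene Pfkm (0.98 ± 0.09) and the mitophagy receptor gene Bnip3 (1.41 ± 0.14). Adm, a hypoxia-inducible peptide gene, was higher by 1.15 ± 0.35, and the low-level genes Slc16a3, a lactate exporter, and Eno2, an enolase, were at -1.34 and -1.14, respectively. Of 34 cholesterol and fatty acid synthesis genes, 18 were higher (52.9%), 9 were lower (26.5%) and 7 did not pass, with a median of 0.14. Scd2, a fatty acid desaturase gene, rose from 3512, 3407 and 3344 to 7515, 8083 and 7277 (1.15 ± 0.04), Insig2, a brake on sterol synthesis, by 1.25 ± 0.06, and the sterol enzyme gene Hsd17b7 by 0.94 ± 0.07. Acly, which makes cytosolic acetyl-CoA, changed by -0.84 ± 0.04, and Fasn by 0.12 ± 0.04, a call lost under quantile normalization (adjusted p = 0.384).

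Of 44 lysosome and autophagy genes tested, 24 were higher, against 32.8% of all genes tested, 12 were lower and 8 did not pass, with a median of 0.23. Ctsd, the gene of the protease cathepsin D, rose from 3944, 3704 and 3682 to 8854, 9236 and 9075 (1.26 ± 0.04), and Map1lc3a, an autophagosome protein gene, from 166, 196 and 200.4 to 424, 392 and 446 (1.16 ± 0.08). Tfeb, the transcription factor gene of lysosome biogenesis, rose by 1.03 ± 0.14. Npc2, a lysosomal sterol carrier, went the other way, from 1145, 1027 and 1081 to 325, 360.4 and 366 (-1.63 ± 0.06), as did Atg5 (-1.05 ± 0.11) and Gaa (-0.96 ± 0.05). Of 26 antioxidant and ferroptosis genes, 16 were higher (61.5%, against 32.8% of all genes tested), 5 were lower and 5 did not pass. Their median was 0.26. Nqo1, a quinone reductase and standard NRF2 target, rose from 66.1, 72.5 and 43.7 to 226, 295 and 232 (2.05 ± 0.15). Prdx1 (0.79 ± 0.05), Srxn1 (0.71 ± 0.08) and Me1 (0.70 ± 0.06) also rose, while Keap1, the NRF2 inhibitor, changed by -0.76 ± 0.06. The largest fall of this list was in Slc7a11 (-1.73 ± 0.10), named above among the ATF4 genes. It was the only member lower by at least 2-fold.

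Of 24 p53 targets tested, 9 were higher, 10 were lower and 5 did not pass, with a median of -0.07, near the 32.8% higher and 35.1% lower of all genes tested. Gadd45a, a growth arrest gene also induced by ATF4, fell from 325, 531 and 499.8 to 72, 47.5 and 48.4 (-2.99 ± 0.15). Rrm2b (-1.55 ± 0.13), Fas (-1.39 ± 0.19) and Plk3 (-1.31 ± 0.10) were lower, Ei24 was higher (1.05 ± 0.05) and Trp53inp1, the most abundant, changed by -0.71 ± 0.04. Chosen after their values were seen, Cdkn1a, encoding p21, was higher (0.75) as was Mdm2 (0.97). Among 24 BCL2 family and death receptor genes, 7 were higher (29.2%), 11 were lower (45.8%) and 6 did not pass. The shares over all genes tested were 32.8% and 35.1%. Mlkl, the executioner of necroptosis, fell from 1290.1, 1117 and 1239.5 to 231, 263 and 224 (-2.34 ± 0.07), and Casp4, which encodes inflammatory caspase-11 in the mouse, from 46.9, 35.8 and 34.1 to 4.74, 4.42 and 2.74 (-3.02 ± 0.30). Hrk, a BH3-only gene, changed by -1.83 ± 0.22 and Tnfrsf12a, the TWEAK receptor gene, by -1.40 ± 0.05. Bcl2a1d, an anti-apoptotic gene with near-identical copies and hence an uncertain level, was at 1.98, and Mcl1 did not pass (0.04), although it did under quantile normalization (0.10).

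Most basal epithelial markers tested were higher with doxycycline. Basal markers were tested for 12 of 17 genes, and 10 were higher (83.3%, against 32.8% of all genes tested). The other 2 were lower, each by at least 2-fold, and the list median was 1.16. Of these 2, only Cnn1 (-1.83 ± 0.28) fell under the rule for named genes, and the other is not named here. Krt14, the type I keratin of basal cells, stood at 549, 489.8 and 511 with vehicle and 4835, 5222 and 5429.9 with doxycycline (3.32 ± 0.05, limma adjusted p = 1.45e-24). Dsg3, a desmosomal cadherin of stratified epithelia, stood at 22.4, 14.3 and 14.9 and 458, 548 and 533 (4.84 ± 0.15). The groups were far apart for both genes, with little spread inside either. Krt17 rose from 122, 77 and 103 to 432, 458 and 491 (2.20 ± 0.12), and Itgb4, the hemidesmosome integrin gene, by 0.54 ± 0.04. The type I keratin genes Krt14, Krt16, Krt17 and Krt42 are similar in sequence, so how their reads were divided is uncertain.

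Krt6a and Krt6b, keratins of activated epidermis with near-identical sequences, rest on less. Krt6a was 0, 12.5 and 0 with vehicle and 50.2, 38.7 and 42.9 with doxycycline (4.23 ± 0.61), and Krt6b was 0, 19.7 and 0 and 51.1, 45.3 and 23.7 (3.83 ± 0.69). All vehicle reads of both genes came from vehicle library 2, and without it the changes were 5.48 and 5.29. Without vehicle library 1 or 3 they were 3.60 and 3.10, and DESeq2 gave adjusted p values of 0.0935 and 0.271. The contractile gene Cnn1 was lower (-1.83 ± 0.28), and Krt5, the usual partner of Krt14, named after its values were seen, was under the filter with at most 5.37 normalized counts. Chosen after its values were seen, Trp63, the basal lineage transcription factor gene, was higher by 0.65 ± 0.14.

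Of 27 luminal markers tested, 8 were higher (29.6%), 9 were lower (33.3%) and 10 did not pass, with a median of -0.05, shares near the 32.8% higher and 35.1% lower of all genes tested. Ehf, an epithelial ETS factor, rose from 1054, 857 and 913 to 3313, 3418 and 3325 (1.84 ± 0.06), Cldn4, a tight junction gene, from 133, 139.7 and 159 to 456, 431 and 378 (1.54 ± 0.09), and Cd24a from 1108, 1021 and 1079 to 2275, 2302 and 2221 (1.08 ± 0.05). Esr1, encoding the estrogen receptor, fell from 213, 191 and 195 to 86.2, 70.7 and 62.1 (-1.45 ± 0.12), and the epithelial factor genes Ovol1 (-1.22 ± 0.15) and Elf3 (-0.90 ± 0.14) were lower. Cdh1, encoding E-cadherin and the most abundant of the list, stayed in all libraries between 4266 and 5141 (-0.19 ± 0.04). Of 10 milk and alveolar genes, 5 were higher and 5 were lower. Wfdc18, a whey acidic protein family gene, rose from 1068, 714 and 892 to 4378, 4361 and 4028 (2.27 ± 0.08), with Btn1a1 (1.43 ± 0.18) and Muc15 (1.69 ± 0.34). Xdh (-0.96 ± 0.10) and Stat5b (-0.65 ± 0.06) were lower, and the call for Csn3 (-1.02) was lost in DESeq2 (adjusted p = 0.0968) and on leaving out vehicle library 1 or 2 or doxycycline library 2 or 3, with changes from -0.70 to -0.95. Lower members then numbered 3 in DESeq2 and without vehicle library 1.

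Of 16 mesenchymal markers tested, 6 were higher, 5 were lower and 5 did not pass, again near the shares of all genes tested (32.8% and 35.1%). Vim, the intermediate filament vimentin, rose from 887, 727 and 791 to 2548, 2905 and 2876 (1.79 ± 0.06), and Snai1 by 0.77 ± 0.14. Axl, a receptor kinase, fell from 4191, 4151 and 4337 to 1423, 1526 and 1520.2 (-1.50 ± 0.04), and Twist1 by a smaller amount (-0.79 ± 0.07). Of 31 tested extracellular matrix and matricellular genes, 17 were higher (54.8%, against 32.8% of all genes tested), 8 were lower and 6 did not pass. Their median was 0.26. Tnc, encoding tenascin-C, rose from 8698, 8961 and 8963 to 20163, 21466 and 21264 (1.24 ± 0.04), and Fn1, encoding fibronectin, from 37496, 39251 and 38379.7 to 51190.1, 60229 and 55880.0 (0.54 ± 0.05). Outside the list, Col11a1, a fibrillar collagen gene named for its low p, rose from 965, 904 and 886 to 5928, 6161 and 6177 (2.73 ± 0.04). The laminin gene Lamc1 (-1.40 ± 0.05) and the matricellular gene Cyr61 (-1.06 ± 0.05) were lower. Col3a1 was 3.20, 26 and 12.8 with vehicle and 40.7, 19.9 and 16.4 with doxycycline, so its groups overlapped. Its change of 1.09 was 0.36 without vehicle library 1, 1.70 without vehicle library 2 and 0.72 without doxycycline library 1, and its call was lost in DESeq2 (adjusted p = 0.367), in edgeR (0.0603), in limma with no filter (0.0640), and without vehicle library 1 (0.336), doxycycline library 1 (0.201) or doxycycline library 2 (0.0550).

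Of 27 TGF-beta, BMP and Wnt genes, 8 were higher (29.6%), 14 were lower (51.9%) and 5 did not pass, with a median of -0.11. Over all genes tested, 32.8% were higher and 35.1% were lower. Bmp2, a bone morphogenetic protein gene, rose from 61.8, 69 and 69.3 to 581, 559 and 488 (3.004 ± 0.09), and Id2, a standard BMP target, from 251, 195 and 233 to 1262, 1072 and 1060.0 (2.32 ± 0.08). Both sets of doxycycline values lay at more than 4 times every vehicle value. Sfrp1, a secreted Wnt antagonist, rose from 377, 297 and 368 to 885, 1074 and 845 (1.43 ± 0.08), with Notum (1.63 ± 0.29) and Tgfbr2 (1.01 ± 0.04), while Bambi, a BMP and TGF-beta pseudoreceptor gene, changed by -0.90 ± 0.28.

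**Figure D5:**
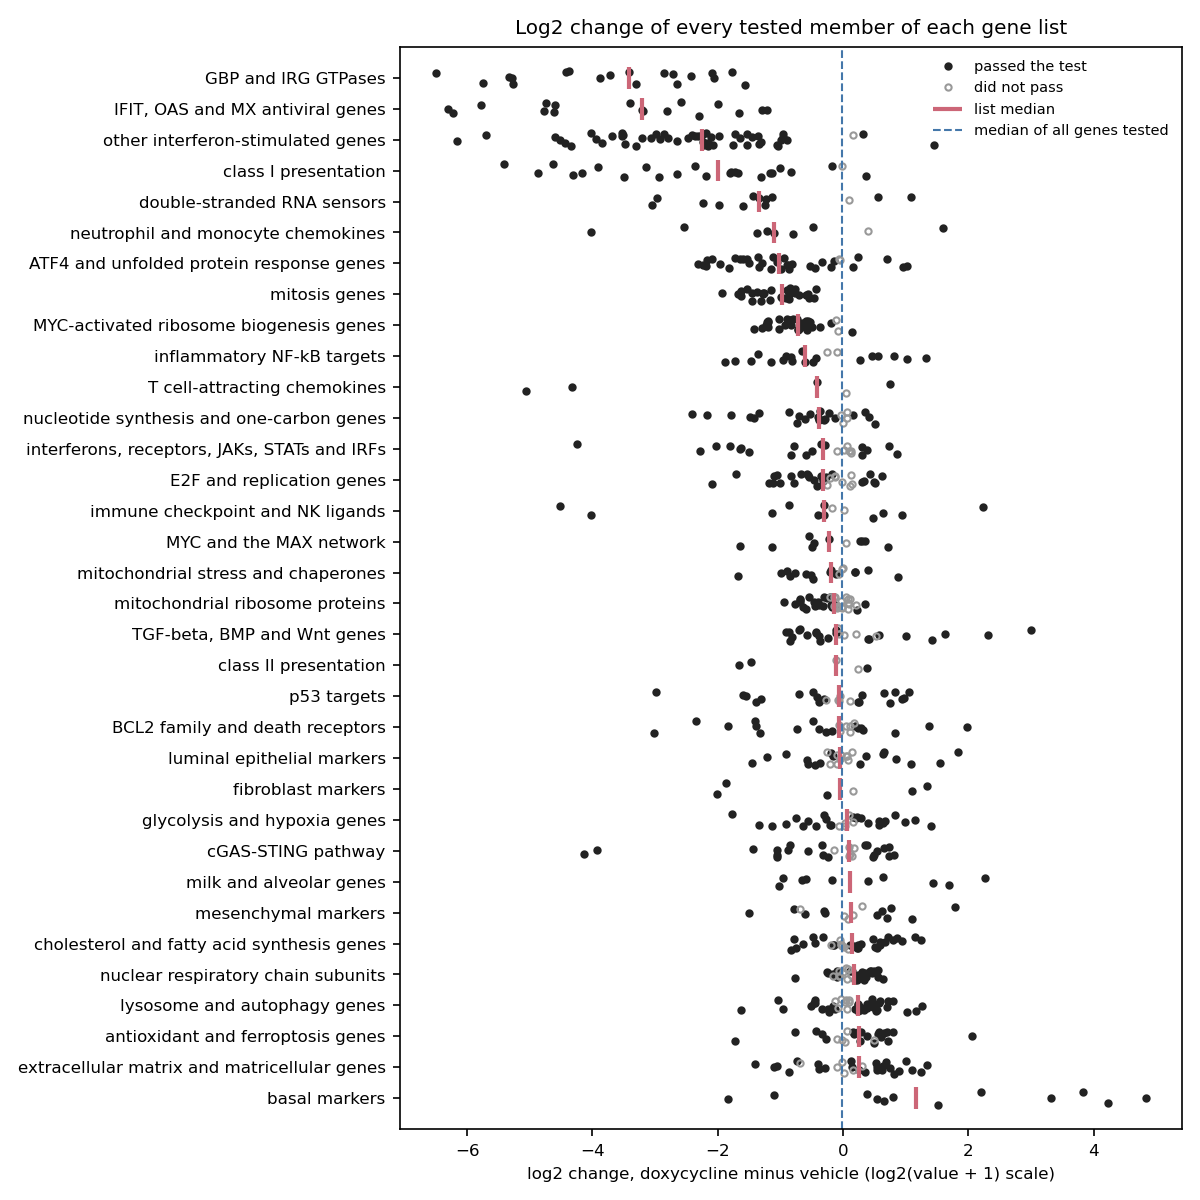
Log2 change (doxycycline minus vehicle) of every tested member of the gene lists with at least 5 tested members, ordered by the list median (red line); filled points passed limma's test and open points did not. GBP and IRG GTPases have the lowest median (-3.42) and basal markers the highest (1.16), and the dashed line marks the median of all genes tested (-0.01).

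Markers of other cell types were checked in the same libraries. No endothelial marker passed the filter. Of 13 myeloid markers, 4 were tested, 0 were higher and 1 was lower, and the list summed to 756 to 787 normalized counts in the vehicle and 694 to 771 in the doxycycline libraries. Named after their values were seen, the leukocyte gene Ptprc and the macrophage gene Adgre1 had at most 2.13 normalized counts in any library, so the myeloid sum came mainly from Cd14 and Csf1r. Without doxycycline library 3, 1 myeloid marker was higher. Among T cell markers, Cd247 was at 165, 145 and 132 and 98.5, 122 and 114 (-0.40 ± 0.12) while Cd3e, also named after its values were seen, was near 0. The fibroblast list summed to 474 to 560 with vehicle and 308 to 408 with doxycycline. Of its 6 members tested, 2 were higher, 3 were lower and 1 did not pass. Pdgfrb (-1.87 ± 0.13) and Fap (-2.01 ± 0.29) were among the lower members. The higher members were Col3a1 and Dcn. Dcn rose from 6.40, 9.85 and 6.39 with vehicle to 21.8, 18.8 and 20.1 with doxycycline (1.33 ± 0.30), with the groups apart. Leaving out vehicle library 1 or doxycycline library 1 or 2 left 1 fibroblast member higher, Col3a1 being the one described above. The part of such markers in the changes above was not tested.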

How the data were processed

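RNA was measured in 6 Py230 libraries. The deposited values are normalized counts (a signal in size-factor units); HISAT2, featureCounts, StringTie and DESeq2 are named in the submitters' processing notes (genome build not given in the sources used here). Each value was a whole multiple of what 1 read is worth in its library (100% of values within 0.05 reads), which gave 7246522 to 9136783 reads per library. How multi-mapped and antisense reads were counted is not stated. For genes whose mean over the table reached 10, limma 3.58.1 (trend, R 4.3.3) was run two-sided on log2(value + 1). Benjamini-Hochberg adjustment covered all of them, with a threshold of 0.05. Scripts were tested on simulated data. Alternatives were pseudocounts 0.5 and 4, no filter or a mean of 50, quantile and TMM scaling, edgeR 4.0.16 and DESeq2 1.42.0 on the recovered reads, a replicate block and leaving out each library.

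The members and lists were chosen with earlier results of these data known. Named genes are Tmem173, Cgas, Myc, Ccl5, Cxcl10, Cxcl11 and the pathway list; in each other list up to 6 members with the largest called change and the most abundant member; the 10 highest and 10 lowest called changes with a mean of at least 50; and the 10 lowest p with a mean of at least 1000. All others were named after their values were seen. Counting intervals are exact, at 95%.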

Additional observations from a re-analysis of the deposited data

How the results depend on the processing

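The counts of genes higher and lower kept within 1.5 times their values under every alternative run; those at least 2-fold higher became 1600 with no filter and 570 with a mean of at least 50, against 937, by testing more or fewer genes. No called gene was called in the opposite direction under any alternative. The recovered reads gave 4884 higher and 4949 lower in edgeR and 4222 and 4358 in DESeq2. Leaving out each library gave 4401 to 4659 higher, 4724 to 4942 lower, 925 to 987 at least 2-fold higher, 1110 to 1164 at least 2-fold lower and a Tmem173 change of -4.19 to -4.09. Same-numbered libraries did not deviate together (correlations 0.03, -0.02 and -0.03). Deviations were taken from means of only 3 libraries, so these values cannot decide whether same-numbered samples were paired. With a replicate block 4758 genes were higher and 5062 lower. Quantile normalization moved the median of all genes by 0.05 and gave 5177 higher and 4610 lower; Atp5a1 turned from -0.09 to 0.0300 (adjusted p = 0.453), and the cause was not tested. Of 251 named genes with a test, 17 changed side or direction under some alternative. A description of promoter motifs was planned and not run; mouse promoter sequences were not used here. Depth limits genes such as Ifnb1 and Cxcl11, whose doxycycline libraries held 2 and 0 reads.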

Other observations

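Counting called genes whose mean reached 50 and whose groups were apart, the 10 highest changes were Krt42, Gmnc, Kif26a, Krt16, Wfdc12, Dsg3, Sema4f, Tfcp2l1, Mgam and Efhd1, of which only Dsg3 was in a list. Krt42 stood at 1.07, 1.79 and 2.13 normalized counts with vehicle and 284, 321 and 375 with doxycycline (6.96 ± 0.22), and Krt16 at 26.7, 17 and 16 and 996, 1112 and 1225 (5.77 ± 0.14), with levels that are uncertain because type I keratin genes are similar. Gmnc, encoding geminin coiled-coil protein of multiciliated cells, had 2 reads in the vehicle libraries and was 223-fold higher (95% counting interval 55.0 to 1656). Kif26a, an unconventional kinesin gene, rose from 11.7, 17 and 14.9 to 811, 881 and 895 (5.81 ± 0.13). All 3 doxycycline libraries were high for each of these genes.

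Tfcp2l1, an epithelial transcription factor gene, rose from 38.4, 26 and 36.2 to 677, 689.8 and 761 (4.38 ± 0.12), and the semaphorin gene Sema4f from 12.8, 13.4 and 14.9 to 328, 339 and 375 (4.57 ± 0.14). The remaining genes were Mgam, an intestinal maltase gene, at 4.27 ± 0.19, Efhd1, a mitochondrial calcium-binding protein gene, at 4.10 ± 0.22, and Wfdc12, a whey acidic protein family gene, at 4.94 ± 0.33. Over the whole table, 27 genes were higher by at least 16-fold and 64 were lower by at least 16-fold, so the largest changes were more often falls.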
